A study of Macaca mulatta with 16 samples.

Results

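The core cardiac transcription factors described here are GATA4, GATA6, TBX5, TBX20, NKX2-5, MEF2A, MEF2C, MEF2D, HAND2 and SRF. They were taken by gene symbol from the deposited gene count table, and all 10 were found among its 19425 genes. The study extracted RNA from formalin-fixed, paraffin-embedded (FFPE) cardiac tissue of rhesus macaques of Indian origin and sequenced ribosomal RNA-depleted total RNA. Each of 8 animals gave 1 library with Method QE, a Qiagen AllPrep DNA/RNA FFPE kit with added ethanol washes after xylene deparaffinization. The same 8 animals gave 1 library each with Method BL, a CELLDATA RNAstorm kit with a lengthened protease lysis. The study describes its animals as a model of right ventricular pressure overload, and the hearts were perfused with fixative and stored as paraffin blocks at room temperature for over a year. The age and sex of each animal, its treatment and the chamber sampled could not be found in these sources. No sequenced group was unfixed, so the comparison is between 2 ways of handling fixed tissue.

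These 10 genes encode proteins that bind regulatory DNA of heart muscle genes and act in combination. GATA factors recognize GATA motifs through zinc fingers, T-box factors and NKX2-5 bind next to them, and the MADS-box proteins MEF2 and SRF bind AT-rich elements of contractile and cytoskeletal genes. In the mouse, loss of most of them disturbs heart formation, and several remain expressed in adult cardiomyocytes, where they maintain the contractile and conduction gene programme.

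The 3 MEF2 genes are close paralogs, so the start of their coding sequences is shown to make clear how far reads can tell them apart. The lines give the first 90 bases from the start codon, 5′ to 3′, from RefSeq transcripts of the Mmul_10 assembly, and the capitals mark bases that differ from MEF2A. These bases encode the first part of the MADS box, the DNA-binding domain, and each stretch is split over 2 exons.
MEF2A (chr7:78837944-78850442, plus strand): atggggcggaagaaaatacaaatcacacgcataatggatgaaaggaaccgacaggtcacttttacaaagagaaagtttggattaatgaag
MEF2C (chr6:85698378-85717458, minus strand): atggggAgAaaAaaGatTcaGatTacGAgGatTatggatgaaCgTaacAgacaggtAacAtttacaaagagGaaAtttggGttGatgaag
MEF2D (chr1:94482266-94482943, plus strand): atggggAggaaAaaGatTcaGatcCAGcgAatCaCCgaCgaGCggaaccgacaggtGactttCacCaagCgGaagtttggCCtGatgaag

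MEF2C differed from MEF2A at 20 of these 90 bases and MEF2D at 23. Over the full RefSeq transcripts, the longest identical run was 17 bases between MEF2A and MEF2C, 15 bases between MEF2A and MEF2D and 20 bases between MEF2C and MEF2D. GATA4 and GATA6 shared runs of up to 17 bases, and TBX5 and TBX20 of up to 14 bases. No stretch of 50 bases was shared between any 2 of the 10 genes, and all 10 carry sequence of their own. Outside the 10 genes, NKX2-5 shared a run of 57 bases with its paralog NKX2-4. TBX5 shared 23.5% of its 50-base stretches with other RefSeq genes, nearly all with LOC114670959, which overlaps its start on the same strand and lies outside the coordinates of TBX5 in the table.

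The table places the genes on Mmul_10 at 10 separate loci, all of them protein coding. GATA4 lies at chr8:8818351-8870368 and GATA6 at chr18:60204229-60236373, both on the minus strand. TBX5 lies at chr11:114079183-114129703 on the minus strand and TBX20 at chr3:79821418-79873076 on the plus strand. NKX2-5 was given as chr6:170609830-170638306 and MEF2C as chr6:85613585-85780470, both on the minus strand. MEF2A lies at chr7:78767720-78928588 and MEF2D at chr1:94482129-94500381, both on the plus strand. HAND2 lies at chr5:170818854-170821658 and SRF at chr4:126162178-126169407, both on the minus strand. Antisense RefSeq genes overlap the ends of the RefSeq genes TBX20, MEF2C and HAND2, and 2.99% of the 50-base stretches of TBX20, 5.32% of those of MEF2C and 14.2% of those of HAND2 occur on the opposite strand of other RefSeq genes. Whether the counting used strand is not given, so reads of the neighbours of MEF2C and HAND2 may be included. The antisense neighbour of TBX20 lies outside the coordinates of TBX20 in the table. Inside MEF2D, the table lists ENSMMUG00000057120 on the opposite strand, with a median of 3.5 counts per library. RefSeq also places small nuclear RNA genes inside MEF2D (LOC114674750, same strand) and GATA6 (LOC114673937, opposite strand). Whether their reads enter the counts of these members was not tested.

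All 10 genes passed the filter on low counts. Libraries held 19291593 to 25690001 gene counts with Method QE and 14999179 to 25807216 gene counts with Method BL. Raw counts of single members ran between 185 for SRF and 10533 for MEF2A. The summed counts of the 10 genes made up 0.0729% ± 0.00752 of all gene counts in Method QE libraries and 0.0839% ± 0.0107 with Method BL (SD, n = 8 each). Mitochondrial genes took 35.8% ± 6.16 with Method QE and 28.5% ± 6.10 with Method BL (SD, n = 8 each), and their part in the members' shares was not tested. Levels are given in CPM, a gene's counts scaled up from its library's total to 1 common library size, after TMM scaling, a factor per library that centres most genes. Of 10 listed cardiomyocyte markers, 8 were in the table. All 8 listed endothelial and all 7 listed fibroblast markers were there too, so presence alone does not test the tissue label. TTN, which encodes the sarcomere spring titin, had the highest CPM of the cardiomyocyte markers in the table, not corrected for length. It averaged 98884 ± 24661 CPM with Method QE and 101170 ± 26125 CPM with Method BL (SD, n = 8 each). The level of this 1 sarcomere gene goes with muscle but does not by itself test the cardiac label. MYH6 and TNNI3 had no row under their symbols.

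The first question was whether the extraction method changed the measured level of these regulators. No member differed between methods at an adjusted p under 0.05 (edgeR quasi-likelihood F test with animal as a block, Benjamini-Hochberg over 14165 genes). This count of 0 of 10 stands beside 303 genes, or 2.14% of those tested, of which 121 were higher and 182 lower with Method QE. One member, MEF2C, had an unadjusted p under 0.05 in edgeR, as did 2552 of the 14165 genes. DESeq2 and limma-voom each also called 0 members. Each had 1 member at an unadjusted p under 0.05, beside 2350 genes with DESeq2 and 2663 with limma-voom. The median log2 fold change was 0.02 over the members and 0.00 over all genes tested. Individual values ran between -0.12 for GATA6 and 0.14 for MEF2C, and the libraries of both methods overlapped for every member. Method BL library names carry a suffix B for 5 animals and R for 3, whose meaning is not stated. Within the B animals the members' values ran between -0.13 and 0.17, within the R animals between -0.33 and 0.17, and 0 members were called in either. In each, 1 member had an unadjusted edgeR p under 0.05, beside 1958 of 14186 genes for B and 870 of 14291 for R.

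**Figure D1:**
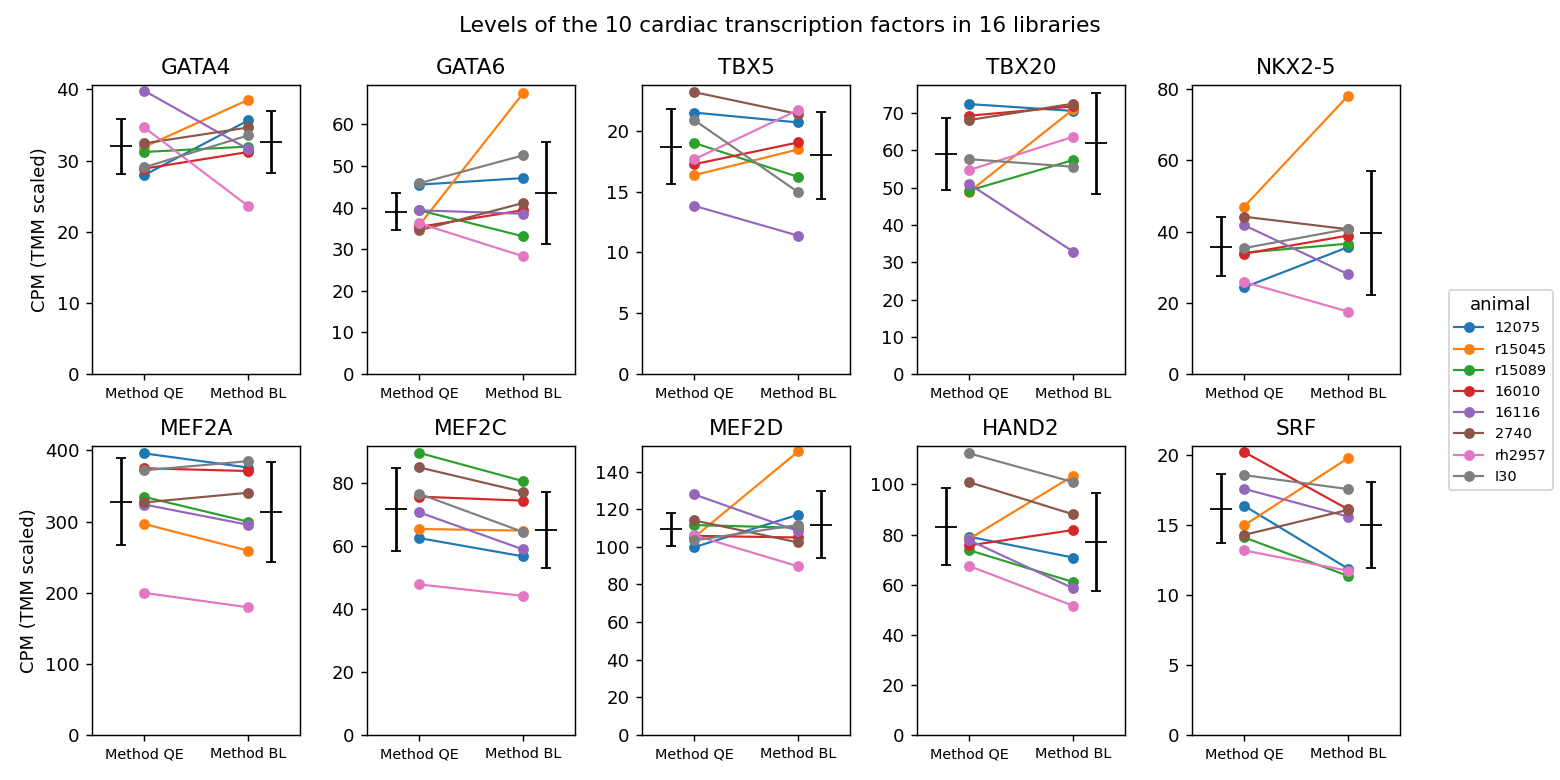
Level of each transcription factor in CPM (TMM scaled; vertical axis starting at 0) in the 8 Method QE and 8 Method BL libraries. Lines join the libraries of 1 animal and black bars give the mean ± SD; MEF2C lies higher with Method QE for 8 of 8 animals, and the ranges of both methods overlap in all 10 panels.

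GATA4 and GATA6, zinc-finger factors that activate contractile and natriuretic peptide genes, gave overlapping levels with both extractions, and neither was called. GATA4 had a lowest, median and highest level of 28.0, 31.6 and 39.8 CPM with Method QE, against 23.6, 32.8 and 38.5 CPM with Method BL. Its log2 fold change was -0.02 ± 0.10 (SE), with an adjusted p of 0.929 in edgeR and a 95% interval of -0.23 to 0.19. GATA6 spanned 34.5, 37.8 and 45.8 CPM with Method QE, against 28.3, 40.2 and 67.5 CPM with Method BL. The spread of GATA6 was wider with Method BL, where animal r15045 was highest and animal rh2957 lowest. In animal r15045, GATA6 was 35.7 CPM with Method QE and 67.5 CPM with Method BL, a log2 difference of -0.92. The log2 fold change of GATA6 over all animals was -0.12 ± 0.11 (SE; edgeR adjusted p = 0.630; 95% interval -0.36 to 0.13). The count ratio of GATA4 to GATA6 within a library averaged 0.832 ± 0.147 with Method QE and 0.778 ± 0.124 with Method BL (SD, n = 8 each). This ratio is free of library scaling, and in 5 of 8 animals Method QE gave the higher one (exact sign-flip permutation test, two-sided, p = 0.430, adjusted over 4 ratios p = 0.430).

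The T-box factors TBX5 and TBX20, which act with NKX2-5 and GATA4 on cardiomyocyte genes, also overlapped between methods. TBX5, the gene of the human heart-hand syndrome Holt-Oram, had 13.8, 18.3 and 23.2 CPM as lowest, median and highest with Method QE, against 11.4, 18.8 and 21.7 CPM with Method BL. The fold change of TBX5 was 0.07 ± 0.09 on the log2 scale (SE; edgeR adjusted p = 0.747; 95% interval -0.13 to 0.26). TBX20, which is needed for adult cardiomyocyte function in the mouse, had 48.8, 56.2 and 72.4 CPM with Method QE, against 32.9, 67.1 and 72.5 CPM with Method BL. Animal 16116 had the lowest TBX5 with both methods and the lowest TBX20 with Method BL. TBX20 differed by -0.05 ± 0.10 on the log2 scale (SE; edgeR adjusted p = 0.824; 95% interval -0.27 to 0.16). The ratio of TBX5 to TBX20 was 0.321 ± 0.0459 with Method QE and 0.294 ± 0.0332 with Method BL (SD, n = 8 each; exact sign-flip permutation test p = 0.273, adjusted p = 0.430; Method QE gave the higher ratio in 5 animals).

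NKX2-5, the homeobox factor that marks cardiac identity from the earliest heart progenitors, was the most variable member. Its lowest, median and highest levels were 24.3, 34.7 and 46.9 CPM with Method QE, against 17.5, 37.8 and 78.1 CPM with Method BL. Both extremes with Method BL lay outside the Method QE range, in animals rh2957 and r15045. The log2 fold change of NKX2-5 was -0.07 ± 0.13 (SE; edgeR adjusted p = 0.824; 95% interval -0.36 to 0.22). HAND2, a basic helix-loop-helix factor known for right ventricular development in the mouse, had 67.5, 78.0 and 112 CPM with Method QE, against 51.6, 76.3 and 103 CPM with Method BL. HAND2 was higher after Method QE extraction in 6 of 8 animals, by 0.13 ± 0.09 on the log2 scale (SE; edgeR adjusted p = 0.452; 95% interval -0.05 to 0.32).

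MEF2A, MEF2C and MEF2D bind AT-rich elements of muscle genes, and MEF2A had the highest CPM of the 10 genes. MEF2A had 199.6, 331 and 396 CPM as lowest, median and highest with Method QE, against 179, 320 and 385 CPM with Method BL. Method QE gave the higher MEF2A level in 6 of 8 animals, by 0.08 ± 0.06 on the log2 scale (SE; edgeR adjusted p = 0.569; 95% interval -0.06 to 0.22). MEF2C, which is needed for heart looping in the mouse, had 47.8, 73.2 and 89.6 CPM with Method QE, against 44.2, 64.7 and 80.6 CPM with Method BL. In 8 of 8 animals MEF2C was higher with Method QE, by 0.14 ± 0.06 on the log2 scale (SE; 95% interval 0.02 to 0.26). The unadjusted edgeR quasi-likelihood p of MEF2C was 0.0304, but the adjusted p was 0.224 and lay between 0.168 and 0.897 under all alternatives that keep the animals paired. MEF2D had 99.7, 106 and 128 CPM with Method QE, against 89.6, 109 and 151 CPM with Method BL, and its log2 fold change was -0.02 ± 0.09 (SE; edgeR adjusted p = 0.914). Relative to MEF2A within a library, MEF2C stood at 0.222 ± 0.0351 with Method QE and 0.214 ± 0.0416 with Method BL, and MEF2D at 0.347 ± 0.0883 with Method QE and 0.375 ± 0.109 with Method BL (SD, n = 8 each). Neither ratio differed between methods (exact sign-flip permutation tests p = 0.297 and 0.422, both adjusted to 0.430). The deposited counts of MEF2A were fractional in every library, more than 0.01 from a whole number, whereas those of 7 other members were whole in all 16 libraries.

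SRF, the MADS-box factor that drives actin and smooth muscle genes with myocardin, was the least abundant member in CPM. It had 13.2, 15.7 and 20.2 CPM as lowest, median and highest with Method QE, against 11.4, 15.9 and 19.8 CPM with Method BL. In 6 of 8 animals SRF was higher with Method QE, by 0.12 ± 0.10 on the log2 scale (SE; edgeR adjusted p = 0.562; 95% interval -0.09 to 0.32). Its coactivator MYOCD, which encodes myocardin, averaged 106 ± 18.0 CPM with Method QE and 107 ± 26.6 CPM with Method BL (SD, n = 8 each).

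**Figure D2:**
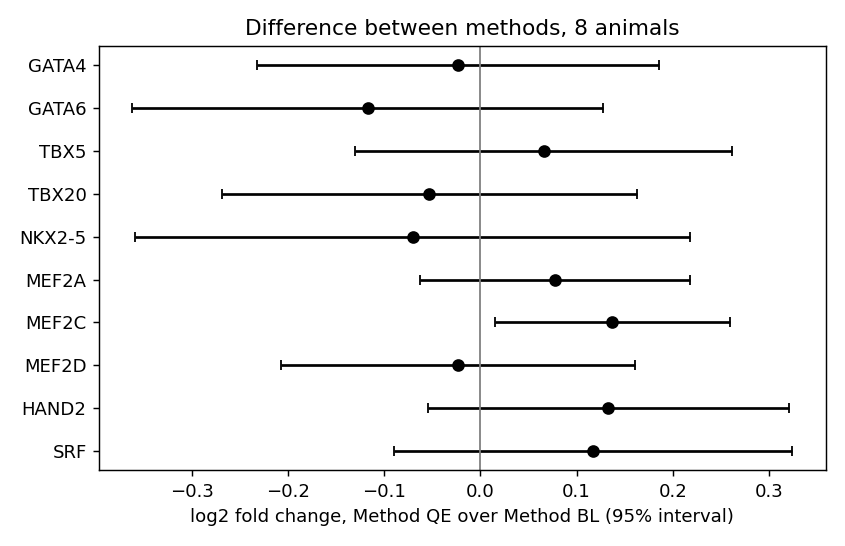
Log2 fold change of each transcription factor, Method QE over Method BL (horizontal axis), from the edgeR fit with animal as a block, with 95% intervals over 8 animals. The interval of MEF2C runs between 0.02 and 0.26 and the other 9 intervals include 0.

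Within some animals, the differences between methods pointed one way for most members. In animal 16116, 10 of 10 members were higher with Method QE, with a median log2 difference of 0.27. In animal r15045, 2 of 10 were higher with Method QE and the median difference was -0.40. The median over all genes was 0.01 in animal 16116 and -0.02 in animal r15045. After TMM scaling, the Method BL library of animal r15045 was the highest of that method for GATA4, GATA6, HAND2, MEF2D, NKX2-5 and SRF. The share of all genes that were highest in this library was not computed. Its TMM factor was the lowest of that method, 0.816 against 0.959 to 1.36 in the others. A lower factor gives higher scaled levels. Before this scaling, the 10 members made up 0.0711% of its gene counts, the smallest share with Method BL. This library also had the largest mitochondrial share with Method BL, 39.3% against 20.5% to 34.3% in the others. Its 17440 genes detected were the fewest with that method. The parts of scaling and of library quality in its high levels were not tested. Both animals also differed between their libraries in the summed level of 7 fibroblast markers, led by collagen genes. This sum was 4419 CPM with Method QE and 1047 CPM with Method BL in animal r15045, and 1592 CPM with Method QE and 6482 CPM with Method BL in animal 16116, while the other 12 libraries lay between 689 and 1849 CPM. The part of fibroblast content in the members' differences was not tested. In bulk tissue, fewer cells of a type and less RNA per cell cannot be told apart.

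Without animal r15045, 9 of 10 members had a log2 fold change above 0, beside 7206 of all 14148 genes tested, and 0 members were called. With all animals, 5 of 10 members and 7179 of 14165 genes had a log2 fold change above 0. Leaving out r15045, 3 members, HAND2, MEF2C and SRF, had an unadjusted edgeR p under 0.05, as did 2798 of the 14148 genes. With all animals this held for 1 member and 2552 of 14165 genes. Without r15045, the members' values ran between 0.00 for GATA6 and 0.21 for HAND2.

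The second question was which members differed among the 8 hearts by more than the libraries of 1 heart differed. MEF2A, MEF2C, HAND2 and NKX2-5 did so, which is 4 of 10 members beside 31.5% of all genes tested (edgeR quasi-likelihood F test of the animal terms, adjusted over 14165 genes). DESeq2 called 6 members, adding TBX5 and TBX20, beside 5552 of the 14165 genes, where edgeR called 4461. With limma-voom, 4 members and 3635 genes were called. MEF2A had the smallest adjusted p, 0.00133. Its animal mean was lowest in animal rh2957, at 189 CPM, and highest in animal 12075, at 386 CPM, a 2.04-fold span. The other 6 animals lay between 278 and 379 CPM. MEF2C spanned 46.0 CPM in animal rh2957 to 85.1 CPM in animal r15089 (1.85-fold; edgeR adjusted p = 0.00150). HAND2 spanned 59.5 CPM in animal rh2957 to 107 CPM in animal I30 (1.79-fold; edgeR adjusted p = 0.0202).

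NKX2-5 had the widest span, 21.7 CPM in animal rh2957 to 62.5 CPM in animal r15045 (2.88-fold; edgeR adjusted p = 0.0231). Its top value rested on the Method BL library of animal r15045, at 78.1 CPM against 46.9 CPM with Method QE. Without animal r15045 the adjusted p of NKX2-5 was 0.0753, and without animal rh2957 it was 0.0521. MEF2A had an adjusted p of 0.0549 without animal rh2957, MEF2C of 0.0259 without it, and HAND2 of 0.0778 without animal I30. Of these 4, MEF2C was the only one called after leaving out any 1 animal. In the 5 animals with the suffix B in the Method BL name, the edgeR adjusted p of MEF2C was 0.0602. There it was 0.192 for MEF2A, 0.395 for NKX2-5 and 0.0188 for HAND2.

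**Figure D3:**
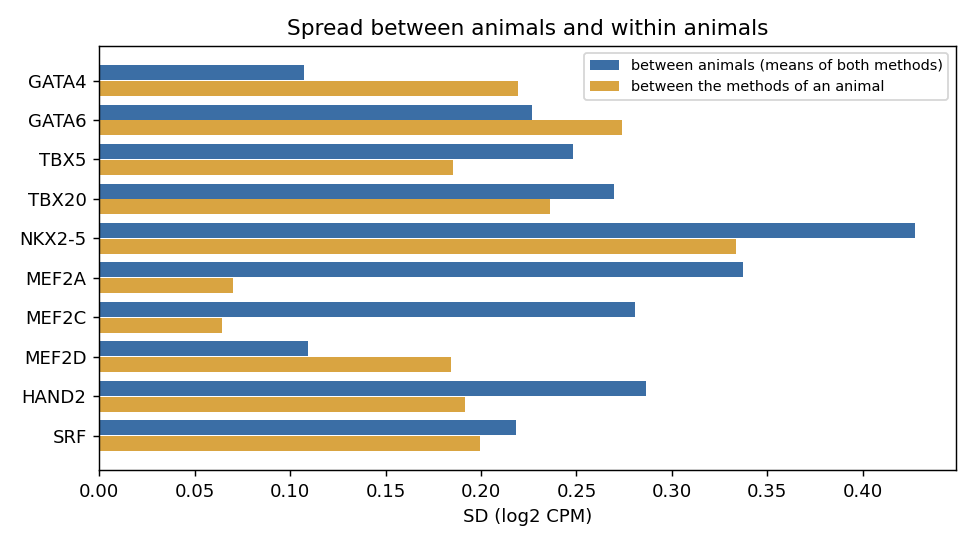
Standard deviation of log2 CPM between the 8 animal means (blue) and between the libraries within an animal (yellow) for each transcription factor. The yellow bars leave out the mean difference between methods. Blue bars are for means of 2 libraries and yellow bars for single libraries. MEF2A and MEF2C had a spread of 0.34 and 0.28 between animals and 0.07 and 0.06 within animals, while GATA4 had 0.11 between and 0.22 within. With the mean method difference kept, the spread within animals was 0.09 for MEF2A, 0.11 for MEF2C and 0.21 for GATA4.

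The 6 members that did not pass in edgeR fell into groups of different spread. TBX5 and TBX20 missed the threshold narrowly, with adjusted p of 0.0665 and 0.0832 and spans of 1.77-fold and 1.71-fold. SRF and GATA6 had adjusted p of 0.131 and 0.196. GATA4 and MEF2D varied least among hearts: their animal means differed by 1.23-fold and 1.31-fold, with edgeR adjusted p of 0.793 and 0.599. For GATA4 and MEF2D the SD between animal means was 0.11 each on the log2 scale, and the SD within an animal was 0.22 and 0.18. The first is an SD of means of 2 libraries and the second an SD of single libraries. Averaging lowers the first, so the 2 are not on the same scale.

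Animal rh2957 had the lowest mean of 8 of 10 members, the exceptions being TBX5 and TBX20, which were lowest in animal 16116. The share of all genes lowest in animal rh2957 was not computed, so this count is not read as a trait of the members. Animal rh2957 was lowest for 7 members with Method BL and for 4 with Method QE, and MEF2A, MEF2C and HAND2 were lowest there with both. Its Method BL library had the highest TMM factor of that method, 1.36 against 0.816 to 1.22 in the others. A higher factor gives lower scaled levels, and the part of scaling was not tested. The same animal had the lowest summed level of the 8 measured cardiomyocyte markers, 97921 CPM with Method QE and 64694 CPM with Method BL, against 99965 to 167305 CPM with Method QE and 100503 to 158885 CPM with Method BL in the others. It also had the highest sum of 8 macrophage and leukocyte markers, 470 CPM with Method QE and 682 CPM with Method BL, against at most 328 CPM with Method QE and 342 CPM with Method BL in the others. Its Method BL library held 202 CPM of 5 adipocyte markers, against at most 44.7 CPM in the other 15 libraries. The part of cell content in the low values of this heart was not tested.

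**Figure D4:**
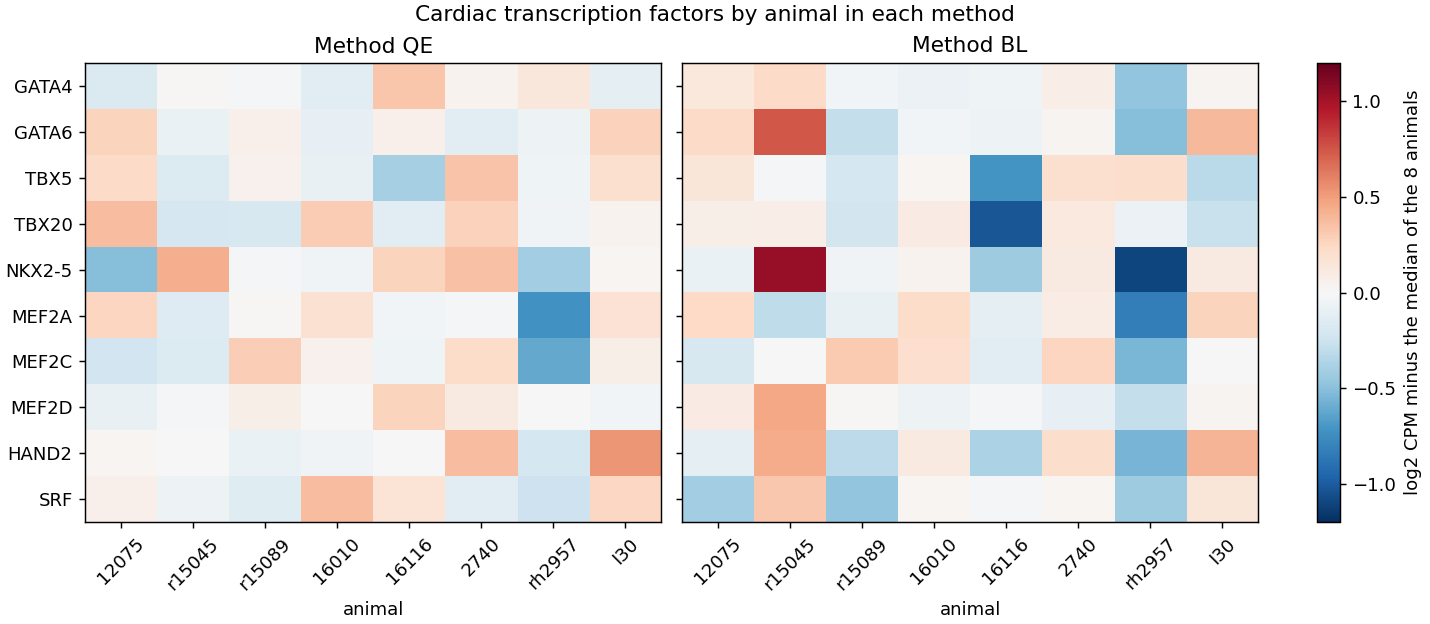
Log2 CPM of each transcription factor (rows) in each animal (columns) minus the median of the 8 animals, with Method QE (left) and Method BL (right); red is higher and blue is lower. MEF2A and MEF2C are low in animal rh2957 with both methods, and animal r15045 is high for 6 members with Method BL.

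The methods ranked the animals alike for some members and not for others. Over the 8 animals, log2 CPM with Method QE and with Method BL correlated with r = 0.97 for MEF2A (rho = 0.90, exact permutation p = 0.000496) and r = 0.95 for MEF2C (rho = 0.88, exact permutation p = 0.000769). Adjusted over the same test of all 14165 genes, these p-values were 0.0322 and 0.0349, and 4.91% of all genes passed with r above 0. The permutation p of rho was 0.00456 for MEF2A and 0.00724 for MEF2C. Without the 2 animals farthest from the median, r was 0.85 for MEF2A and 0.81 for MEF2C. The suffix groups of 5 and 3 animals are too small for an r of their own. The other 8 members did not pass. HAND2 had r = 0.69, NKX2-5 0.62, TBX5 0.59, TBX20 0.50, SRF 0.43 and GATA6 0.22, with exact permutation p between 0.0561 and 0.592. GATA4 and MEF2D had r below 0, at -0.36 and -0.21 (exact permutation p = 0.343 and 0.555). The median r was 0.54 over the members, 0.50 over all genes and 0.57 over the 5702 genes in the same range of levels.

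Pairs of members were compared over the 8 animal means. Of 45 pairs, 36 had r above 0, and 0 passed after adjustment over the 45 (4 had an unadjusted exact permutation p under 0.05). The same shares for pairs of other genes were not computed, so these counts are not read as a trait of the members. Within the methods taken singly, r had the same sign with both for 27 of the 45 pairs. GATA4 and GATA6, for example, had r = -0.36 with Method QE and 0.84 with Method BL. GATA4 and MEF2D had r = 0.90 (rho = 0.90, exact permutation p = 0.00231 for r and 0.00456 for rho, adjusted p = 0.104 and 0.205), and 0.81 without the 2 animals farthest from the median. TBX5 and TBX20 had r = 0.90 (rho = 0.81, exact permutation p = 0.00461 for r and 0.0218 for rho, adjusted p = 0.104 and 0.314), and 0.62 without the 2 farthest animals. MEF2A and MEF2C had r = 0.67 but rho = 0.24, and r fell to 0.31 without the 2 farthest animals (exact permutation p = 0.0832 for r and 0.582 for rho, adjusted p = 0.442 and 0.939).

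The genes whose pattern over animals was most like that of a member were found among 7649 genes with a symbol and a mean log2 CPM of at least 3. Likeness was the smaller of the r values over 8 animals within Method QE and within Method BL, given as a description. The highest of 7649 values over 8 animals can be large by chance alone, so no link between genes is drawn from them. For GATA4 and MEF2D the order of animals did not recur between methods (r = -0.36 and -0.21), so their likeness rests on different orders in each. AKAP6 and SUN1 were most like MEF2A, at 0.97 each; AKAP6 encodes an anchoring protein of the cardiomyocyte nuclear envelope and SUN1 a nuclear envelope protein. SLC30A1, a zinc transporter, and KDM7A, a histone demethylase, were most like MEF2C, at 0.92 and 0.90. TFEB, a regulator of lysosomal genes, and JPH2, which holds the sarcoplasmic reticulum to the T-tubule, were most like NKX2-5, at 0.91 and 0.90. GALNT17 and PLCD3 were most like HAND2, at 0.90 and 0.83, and HMGA1 and RNF123 most like MEF2D, at 0.88 and 0.82. CLUAP1 and CEP70 reached 0.87 and 0.84 with TBX20, CASZ1 and KDM3A 0.84 and 0.83 with GATA6, and PALS2 and MAP3K6 0.82 and 0.81 with TBX5. The lowest leading values were those of GATA4, with MGRN1 and RBM38 at 0.79 and 0.78, and of SRF, with ZBTB11 and TAPBPL at 0.75 and 0.72.

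Levels of different members can be compared only per length, here CPM per kb of the longest RefSeq transcript, averaged over both methods of an animal. MEF2A was first, at 53.7 ± 10.9 CPM per kb, followed by HAND2 at 33.5 ± 6.67 and NKX2-5 at 18.7 ± 5.85 (SD, n = 8). MEF2D, TBX20, GATA6, MEF2C and GATA4 followed at 17.5 ± 1.42, 14.5 ± 2.46, 11.2 ± 1.88, 10.1 ± 1.84 and 8.78 ± 0.639 CPM per kb. TBX5 and SRF were last, at 4.16 ± 0.660 and 3.55 ± 0.525 CPM per kb. Of 9 neighbouring pairs, 3 differed after adjustment: MEF2A over HAND2 (1.60-fold), HAND2 over NKX2-5 (1.79-fold) and GATA4 over TBX5 (2.11-fold), each in 8 of 8 animals (exact sign-flip permutation test p = 0.00781, adjusted p = 0.0234). The other 6 pairs, from NKX2-5 down to GATA4 and TBX5 with SRF, did not (adjusted p between 0.0844 and 0.711).

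This order depends on the length used. The coordinates in the table hold 36.1% of the longest RefSeq transcript of TBX5, 32.4% of that of TBX20 and 34.7% of that of SRF, but 93.4% for MEF2A and 99.7% for MEF2C. With only the bases inside those coordinates, a length chosen after the data were seen, TBX20 was at rank 3, with 44.9 ± 7.60 CPM per kb and MEF2C was last, with 10.1 ± 1.84. MEF2A and HAND2 then stood at 57.5 ± 11.7 and 55.4 ± 11.04 CPM per kb and did not differ (exact sign-flip permutation test p = 0.656, adjusted p = 0.836; higher MEF2A in 4 of 8 animals). For NKX2-5 the table's span is 28477 bases, against 3247 bases in RefSeq, so reads outside the RefSeq gene may be counted.

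**Figure D5:**
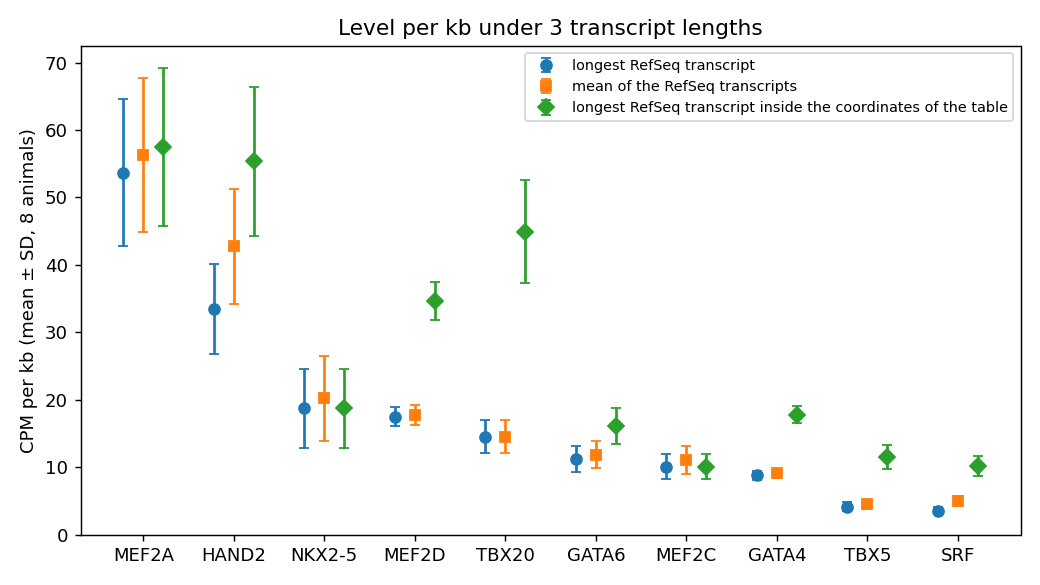
Mean level per kb ± SD over 8 animals (vertical axis, CPM per kb, starting at 0) of each transcription factor, with 3 choices of transcript length. MEF2A stayed first with each length, while TBX20 stood at 14.5 with the longest RefSeq transcript and at 44.9 with the bases inside the coordinates of the table.

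Partners and cofactors of the members gave 0 of 24 calls between methods. This list holds coactivators, class IIa histone deacetylases that repress MEF2, and calcium-responsive NFAT factors, and its median log2 fold change was 0.03. EP300, a histone acetyltransferase, and MYOCD had its highest CPM, not corrected for length, with log2 fold changes of 0.00 ± 0.06 and 0.02 ± 0.07 (SE; edgeR adjusted p = 0.994 and 0.923). NFATC4, a calcium-responsive NFAT factor named here after its values were seen, had 2.63, 3.79 and 7.51 CPM as lowest, median and highest with Method QE, against 3.27, 5.20 and 14.7 CPM with Method BL. The ranges overlapped, and in 8 of 8 animals Method QE gave less NFATC4, with a log2 fold change of -0.55 ± 0.14 (SE; edgeR adjusted p = 0.0530). It passed the threshold with DESeq2, limma-voom and upper quartile scaling and without animal r15045, at adjusted p of 0.0222, 0.0418, 0.0474 and 0.0485. Among animals, 9 of the 24 genes differed, or 37.5% beside 31.5% of all genes tested, MYOCD among them (edgeR adjusted p = 0.00408).

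Among relatives of the members from the same families, 8 of 15 could be tested, and 1 differed between methods. TBX3, a T-box repressor of the conduction system, was lower with Method QE, at 9.97, 13.1 and 16.8 CPM as lowest, median and highest, against 12.1, 20.4 and 26.3 CPM with Method BL. The ranges overlapped, and Method QE gave less TBX3 in 7 of 8 animals, with a log2 fold change of -0.57 ± 0.12 (SE; edgeR adjusted p = 0.0301). The call was lost on leaving out any 1 of the animals r15089, 16010, 16116 and 2740, although the log2 fold change stayed between -0.59 and -0.53 in these 4 fits, where between 37 and 74 of all genes were called in place of 303. All 5 mesothelial markers, MSLN, UPK3B, WT1, KRT19 and LRRN4, also had log2 fold changes below 0, with a median of -1.33 and a range of -1.83 to -1.01, and 0 of the 5 were called (2 at an unadjusted edgeR p under 0.05). Their summed level lay between 0.943 and 49.2 CPM with Method QE and between 4.37 and 30.9 CPM with Method BL, and Method QE gave the smaller sum in 6 of 8 animals. MSLN was at 0 in 1 Method QE library, and KRT19 and LRRN4 in 2 each. The part of mesothelial content in the levels of TBX3 and TBX18 was not tested. TBX18, the relative with the highest CPM when length is not corrected for, had a log2 fold change of -0.33 ± 0.19 (SE; edgeR adjusted p = 0.393).

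Cardiac target genes of the members gave 0 of 22 calls between methods, with a median log2 fold change of 0.13, and 5 calls with DESeq2, all higher with Method QE. MYH7 and RYR2, the beta-myosin heavy chain and the calcium release channel, had the highest CPM, which is not corrected for length, with log2 fold changes of 0.33 ± 0.16 and 0.05 ± 0.13 (SE; edgeR adjusted p = 0.286 and 0.888). Among animals, 19 of these 22 target genes differed, or 86.4%, beside 31.5% of all genes tested. A high share was not particular to them. It was 100% of macrophage and leukocyte markers and 87.5% of smooth muscle and pericyte markers, but 0% of adipocyte and of mesothelial markers. Shares at matched levels were not compared. SRF targets of the cytoskeleton gave 0 of 16 calls between methods, with a median log2 fold change of 0.11. FHL2 and TPM1, a LIM-domain cofactor and a tropomyosin, had the highest CPM of this list without correction for length, and differed by 0.28 ± 0.11 and 0.22 ± 0.09 on the log2 scale (SE; edgeR adjusted p = 0.212 and 0.227). Among animals, 11 of the 16 differed, or 68.8%.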

How the data were processed

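RNA from FFPE cardiac tissue of 8 animals was sequenced after each of 2 extractions, giving 16 libraries. The authors aligned paired reads with STAR (2.7.8a) to Mmul_10 and deposited expected counts per gene, estimated with the Partek E/M algorithm on Ensembl transcripts; the filter on genes is not given in the sources used here, and the smallest summed count in the table is 10. The deposited expected counts were rounded, filtered with filterByExpr, scaled by TMM and fitted with animal and method in edgeR 4.0.16 (R 4.3.3), with DESeq2 1.42.0 and limma 3.58.1 as alternatives. Log2 CPM used a prior count of 2. The threshold was an adjusted p of 0.05, Benjamini-Hochberg over all genes. Ratios had 0.5 added to each count and were compared over all 256 sign assignments; correlations were tested over all 40320 pairings.

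Groups came from the method label. The extraction protocol label names the Method QE kit for all 16 samples, against the other labels. Animals were read from the library names. The animals are named as in the Method BL library names, without the suffix. The 2 libraries of an animal deviated together from their group means, with r between 0.34 and 0.64 over genes, and in 8 of 8 animals the closest Method BL library to a Method QE library was its own partner. Both methods were applied to tissue of the same animals. The edgeR p-values weigh a difference against the spread that remains after the animal and method terms. With 1 library per animal and method, that remainder cannot be split into tissue piece, extraction and library preparation. Named genes were the 10 members, the 2 genes of highest CPM and up to 4 called genes of each list, the 2 genes most like each member and single genes overlapping a member. MYOCD, named with SRF, is among these partners. Small RNA entries that pool many copies, whose coordinates span whole chromosomes, were left out of the overlaps. The members and lists were chosen with earlier results of these data known. Scripts were tested on simulated data.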

Additional observations from a re-analysis of the deposited data

Results flagged for a closer look

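In 28 groups of 8 values (10 members and 4 ratios, each with both methods), 3 single libraries stood far from the rest, and chance alone marks about 1 in 20 groups. With Method BL, NKX2-5 was 78.1 CPM in animal r15045, against 17.5 to 40.7 CPM in the other 7 animals. With Method BL, MEF2D was 151 CPM in the same library, against 89.6 to 117 CPM in the others. The TMM factor of this library, 0.816, was the lowest with Method BL, which raises its scaled levels. With Method BL, TBX20 was 32.9 CPM in animal 16116, against 55.6 to 72.5 CPM in the others. No Method QE library was marked.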

How the results depend on the processing

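No member was called between methods under any alternative, and of 170 log2 fold changes of members under alternatives, 159 kept their sign and 0 passed the threshold. Without the replicate block (method only, animals not paired), 5 genes were called in place of 303, and 0 relatives. Blocking changed no member's call. DESeq2 called 583 genes, 1 partner, 5 cardiac targets and 2 SRF targets. The upper quartile scaling and limma-voom each called 1 partner, NFATC4 in all 3 cases. Animals with suffix B in the Method BL library name gave 49 genes, 0 relatives and 2 cardiac targets; those with suffix R gave 0 genes (870 at an unadjusted p under 0.05 in edgeR), 0 relatives, and, among animals, 751 genes and 1 member. Leaving out each animal gave 37 to 355 genes, 0 to 1 partners, 0 to 1 relatives and 0 to 2 cardiac targets. Signs of uncalled values changed for GATA4 (0.084) and TBX5 (-0.083) with suffix R, and for TBX20 (0.11) and MEF2D (0.013) with suffix B. Leaving out each animal moved GATA4 between -0.11 and 0.023, TBX20 between -0.15 and 0.016, NKX2-5 between -0.16 and 0.028 and MEF2D between -0.062 and 0.047. Without the 2 animals farthest from the median, the agreement of methods was -0.10 for NKX2-5 and -0.075 for SRF. The causes were not tested. The lowest raw count of a member in a library was 185, for SRF; limits of depth were not compared between members.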
